A study of Mus musculus with 9 samples.

Results

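The Rab genes encode small GTPases of vesicle traffic. They were taken as all genes on the array whose symbol is Rab followed by a number and at most 1 letter, leaving out any gene with a probe in the 45-probe table that the study made for one of its figures. That exclusion removed 0 Rab genes. The rule found 57 Rab genes among 16593 named genes, measured by 87 of 25697 probes. Of these, 41 (71.9%) had a probe with detection p under 0.01 on at least 3 of the 9 arrays and were tested, and 16 were not. RNA came from cultured mast cells of C57BL/6J mice in 3 genotypes, labelled normal control, AhR-d and AhR null, with 3 arrays each, 1 from each of 3 culture batches. The aryl hydrocarbon receptor, AhR, is a ligand-activated transcription factor; the AhR-d allele is known for a low affinity for ligand, and the AhR null genotype lacks the receptor. The labels give neither the null allele, nor the age of the mice. All 3 genotypes were grown from bone marrow in 30% WEHI-3-conditioned medium, purified with magnetic beads at 4 weeks, found to be 99% FcεRI-positive by flow cytometry, and rested for 4 h without cytokine before RNA was taken. Replicate numbers below are the batch numbers. The labels do not say whether batches came from separate animals, so a p-value here covers only the spread among the cultures, which may be technical.

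A Rab protein cycles between a GTP-bound form, which sits on a membrane and recruits effectors, and a GDP-bound form, which a GDP dissociation inhibitor returns to the cytosol. Exchange factors load GTP and GTPase-activating proteins end the active state, so that each compartment carries its own Rab proteins. Mast cells store histamine and proteases in secretory granules, which are lysosome-related organelles, and Rab proteins are known to act in the transport, docking and fusion of these granules as well as in receptor uptake and recycling.

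The arrays carried the markers of the labelled cell type: all 11 mast cell markers were detected on all 9 arrays, with a summed level of 182063 to 202524 in control, 191535 to 205542 in AhR-d and 192935 to 208478 in AhR null (linear scale after normalisation). Markers of other marrow cells differed between the groups. None of 12 neutrophil markers was detected on a control array (summed level 321 to 340), against 0 to 8 per AhR-d array (330 to 5438) and 5 to 7 per AhR null array (1271 to 2083), while Camp, Ngp, Mmp8 and Retnlg were detected on none. The summed level of 8 monocyte and macrophage markers was 1184 to 2767 in control, 1860 to 7443 in AhR-d and 2174 to 4057 in AhR null, that of 10 megakaryocyte and erythroid markers 3853 to 5234, 3631 to 5735 and 4619 to 7951, and that of 3 basophil markers 10429 to 11344, 9266 to 14115 and 12017 to 14033. None of 4 lymphocyte markers was detected on any array. Single markers did not all follow these sums in AhR null against control (limma, adjusted p under 0.05, 12.4% of all features called). Of the markers tested, 3 of 11 mast cell, 1 of 3 basophil and 3 of 7 neutrophil markers were higher and none lower. Of 5 monocyte and macrophage markers 2 were higher and 1 lower, and of 9 megakaryocyte and erythroid markers 3 were higher and 1 lower. The mean raw signal per array was 324 to 527 in control, 338 to 684 in AhR-d and 523 to 636 in AhR null. The part of these markers in the Rab results below was not tested, and in such bulk RNA fewer cells of a type and less RNA per cell cannot be told apart.

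In AhR null mast cells, 3 of the 41 Rab genes tested differed from control at an adjusted p under 0.05 (limma, Benjamini-Hochberg over all 7449 features). Rab44 and Rab18 rose and Rab3d fell. These 3 genes are 7.32% of the Rab genes tested, and 12.4% of all features tested were called in the same comparison (6.56% higher and 5.8% lower). The median log2 difference of the 41 Rab genes was 0.0049, against -0.03 for all features, and the median size of the difference was 0.31 against 0.34. Of the 41 Rab genes, 21 had a positive and 20 a negative difference (36 and 5 on the deposited log2 values, 37 and 4 with median scaling), and 27 had a 95% interval within 1 log2 unit of 0 in both directions. With batch as a block, 8 Rab genes (19.5%) were called, against 21.2% of all features.

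**Figure D1:**
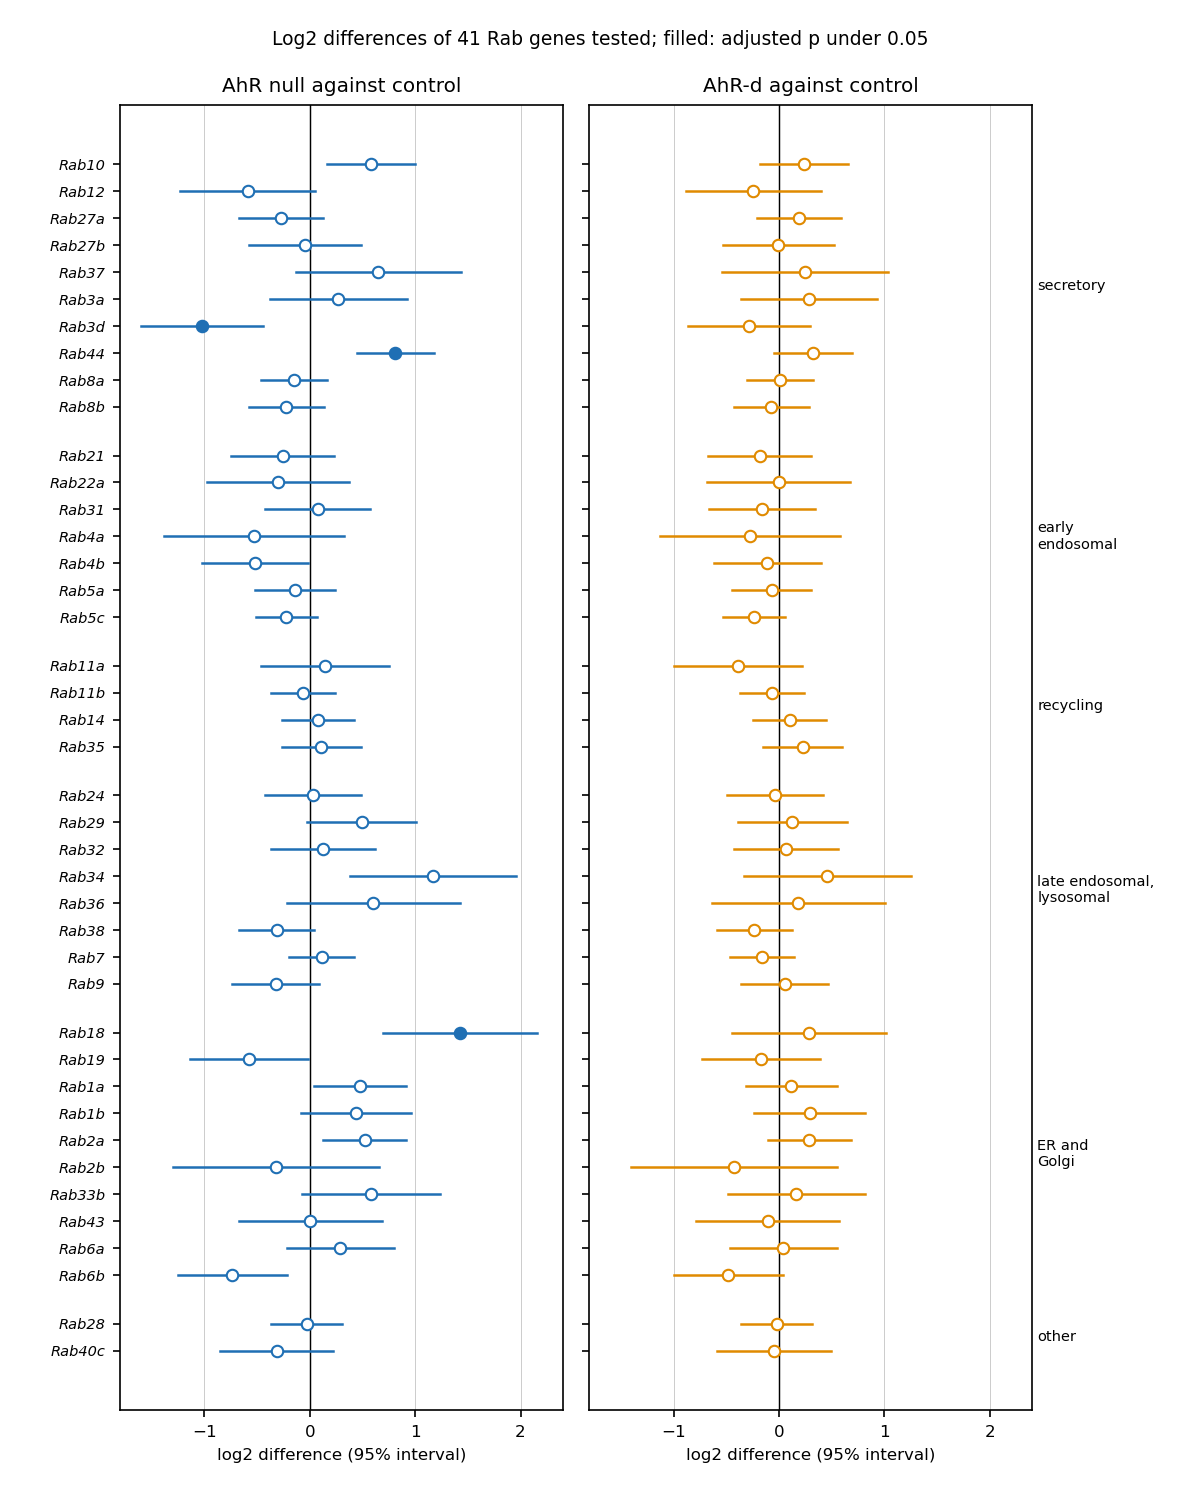
Log2 difference (horizontal axis) of each of the 41 Rab genes tested, in AhR null (left) and AhR-d (right) against control, ordered by role; points are the fitted differences, lines their 95% intervals, and filled points those with an adjusted p under 0.05. The 3 filled points on the left are Rab3d at -1.02, Rab44 at 0.81 and Rab18 at 1.43, and no point on the right is filled. Rab34 and Rab36 were detected on no control array, so their points rest on control signals at background.

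The plot of differences by role places the called genes in 2 of the 6 role groups, secretory and ER and Golgi. Of the genes tested in them, 20% and 10% were called, beside 12.4% of all features. With 3 calls in all, the placement cannot be read as particular to a compartment. Among the secretory Rab genes 10 of 13 on the array were tested, 1 rose and 1 fell. Rab44 codes for a large, atypical Rab with an EF-hand domain that is known from immune cells of the bone marrow. Its normalised log2 signal was 10.57, 10.88 and 10.44 on control arrays of batches 1, 2 and 3, 11.10, 11.04 and 10.72 on AhR-d arrays, and 11.47, 11.28 and 11.59 on AhR null arrays. Every AhR null array lay above every control and AhR-d array, and the AhR-d arrays overlapped with control. The difference between AhR null and control was 0.81 ± 0.17 (log2, SE; 1.76-fold; adjusted p = 0.00731), and within batches 1, 2 and 3 it was 0.90, 0.40 and 1.14. It stayed past the threshold when any 1 array was left out (0.72 to 0.94), but with array brightness as a covariate it was 0.61 (adjusted p = 0.114).

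Rab3d marks the secretory granules of exocrine and mast cells, and it fell. Its signal was 10.32, 9.97 and 10.14 on control arrays, 9.60, 9.60 and 10.37 on AhR-d arrays and 9.09, 8.60 and 9.68 on AhR null arrays. All 3 AhR null arrays were below all 3 control arrays, while the AhR-d arrays reached from below to above the control range. The difference between AhR null and control was -1.02 ± 0.27 (log2, SE; 2.03-fold lower; adjusted p = 0.0254). This call was lost on the deposited log2 values (-0.39, adjusted p = 0.374), with median scaling (-0.43, 0.453) and with array brightness as a covariate (-0.60, 0.313). It was also lost without control replicate 1 (-0.93, adjusted p = 0.0994), control replicate 3 (-1.02, 0.0554), AhR null replicate 1 (-1.003, 0.0796) or AhR null replicate 2 (-0.76, 0.112).

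The Rab genes best known for mast cell degranulation did not pass the test. Rab27a, which docks granules at the plasma membrane, had a signal of 9.74, 9.61 and 9.58 in control, 9.60, 9.83 and 10.06 in AhR-d and 9.12, 9.42 and 9.58 in AhR null. The AhR null arrays reached from below the control range up to its lower edge, and the 95% interval of the difference from control was -0.67 to 0.13. Rab27b, which acts with it in moving granules to the cell edge, had a signal of 9.80, 9.53 and 8.80 in control, 9.48, 9.34 and 9.30 in AhR-d and 9.41, 9.59 and 9.005 in AhR null. The 3 groups overlapped, and the difference between AhR null and control was -0.04 with an interval of -0.57 to 0.49. A second Rab27b probe, detected on all 9 arrays, gave -0.36 ± 0.22 in AhR null and -0.19 in AhR-d, neither passing the test. Rab37, another granule-bound Rab of mast cells, had the signals 6.07, 7.17 and 7.55 in control, 7.14, 7.62 and 6.76 in AhR-d and 7.38, 7.95 and 7.41 in AhR null. The lowest of its 9 values was control replicate 1, and the difference of 0.65 did not pass the test (interval -0.13 to 1.44, adjusted p = 0.266).

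**Figure D2:**
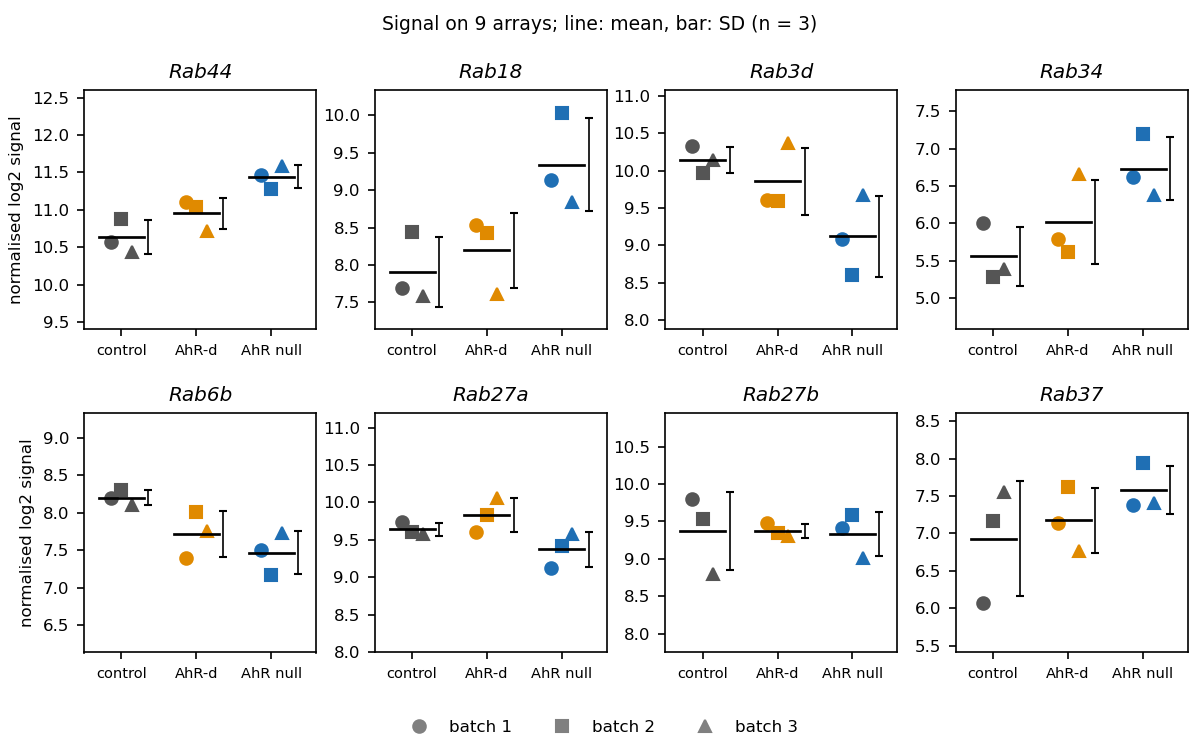
Normalised log2 signal (vertical axis, each panel spanning the same range) of 8 Rab genes on the 9 arrays; symbols mark the culture batch, horizontal lines the group mean and bars the SD (n = 3). AhR null arrays lie above all control arrays for Rab44, Rab18 and Rab34 and below them for Rab3d and Rab6b, while AhR null and control overlap for Rab27a, Rab27b and Rab37.

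Of the other secretory Rab genes, none was called. Rab10, which drives exocytic carriers such as those of the glucose transporter, had the values 9.26, 9.13 and 8.75 in control, 9.28, 9.37 and 9.20 in AhR-d and 9.68, 9.83 and 9.37 in AhR null. Its AhR null arrays were above all others, with a difference from control of 0.58 ± 0.19 (adjusted p = 0.0676; 0.0212 with batch as a block). The mean of its probes gave 1.15 (0.0424), but the second probe was detected on only 2 of 3 control and 2 of 3 AhR-d arrays. Of 20 alternatives, 3 called Rab10. Rab12, known in mast cells for moving granules inward along microtubules, had a difference of -0.59 (interval -1.23 to 0.05). Rab8a and Rab8b, which carry post-Golgi vesicles to the plasma membrane, had differences of -0.15 and -0.22. Rab3a, the synaptic vesicle Rab, was detected on 1 of 3 control arrays and on all AhR-d and AhR null arrays, and its difference in AhR null was 0.27 (adjusted p = 0.598).

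Among the ER and Golgi Rab genes 10 of 14 were tested, 1 rose and none fell. Rab18 is a Rab of the endoplasmic reticulum and of lipid droplets. Its signal was 7.70, 8.45 and 7.59 in control, 8.54, 8.43 and 7.62 in AhR-d and 9.14, 10.04 and 8.84 in AhR null. The lowest AhR null array stood above the highest array of either other group, and the AhR-d arrays overlapped with control. These values are those of 1 probe, and the other Rab18 probe was detected on 0 of 9 arrays. The difference between AhR null and control was 1.43 ± 0.34 (log2, SE; 2.69-fold; adjusted p = 0.0142). It was 0.84 with array brightness as a covariate (adjusted p = 0.223), and it lost its call without control replicate 1 (1.32, 0.0642), control replicate 3 (1.27, 0.0511) or AhR null replicate 2 (1.08, 0.0748).

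Rab6b is the form of the Golgi Rab6 that is known from brain. It had signals of 8.20, 8.30 and 8.11 in control, 7.40, 8.01 and 7.76 in AhR-d and 7.51, 7.16 and 7.73 in AhR null. Both AhR-d and AhR null arrays lay wholly below control and overlapped with each other. The difference was -0.73 ± 0.24 in AhR null (adjusted p = 0.0627, and 0.0382 with batch as a block) and -0.48 ± 0.24 in AhR-d (adjusted p = 0.708). Of 20 alternatives only the block called Rab6b in AhR null. Across them its difference ranged from -0.87 to -0.07, with an adjusted p up to 0.923 in the limma fits. Its broadly expressed relative Rab6a differed by 0.29 in AhR null (adjusted p = 0.456).

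The early secretory Rab genes Rab1a, Rab1b and Rab2a, which act between the endoplasmic reticulum and the Golgi, had positive differences of 0.48, 0.44 and 0.52 in AhR null, with adjusted p-values of 0.138, 0.264 and 0.0777. Rab2a had 11.03, 10.75 and 10.79 in control, 11.34, 10.90 and 11.19 in AhR-d and 11.57, 11.04 and 11.52 in AhR null. The AhR null arrays of Rab2a did not overlap with control, and it was called with batch as a block (adjusted p = 0.0141) and without AhR null replicate 2 (0.69, 0.0421). Rab19 differed by -0.58 (adjusted p = 0.163, and 0.0271 with the block). Of 20 alternatives only the block called Rab19, and its difference ranged from -0.75 to 0.04. Rab33b, which links the Golgi to autophagy through Atg16L1, differed by 0.58 (adjusted p = 0.23). Without control replicate 3, the highest control array, its difference was 0.98 (0.0206). Of 20 alternatives, 1 called Rab33b and 2 called Rab2a. Rab2b was detected on 1 array of each group and Rab43 on 2, 2 and 3 arrays of control, AhR-d and AhR null, and their differences in AhR null were -0.32 and 0.0049.

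The late endosomal, lysosomal and lysosome-related group held 8 tested genes of 11, of which none was called. Rab34, known for lysosome positioning and macropinocytosis, was detected on 0 control, 2 AhR-d and 3 AhR null arrays. Its signal was 6.01, 5.28 and 5.39 in control, 5.79, 5.61 and 6.65 in AhR-d and 6.61, 7.20 and 6.38 in AhR null. All AhR null arrays lay above control, and the highest AhR-d array, replicate 3, lay within the AhR null range. Against the lowest signal that counts as detected, the mean of Rab34 was at least 1.56-fold higher in AhR null than in control. This bound carries no sampling error. The fitted difference was 1.17, with an interval of 0.38 to 1.96 (adjusted p = 0.0531). Rab34 passed the threshold with batch as a block (0.0377), with the mean of its probes (0.00816) and with only these 2 groups in the fit (0.0387). It did so too without AhR-d replicate 3 (0.0338), on the deposited log2 values (0.00683) and with median scaling (0.00458). The last 2 moved the median of all features to 0.29 and 0.53. Over 19 alternatives Rab34 was called in 7, with an adjusted p up to 0.214 in the limma fits. It passed the filter only through AhR-d and AhR null arrays, so these calls are not independent of the filter.

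The Rab genes that are central to this route did not pass the test. Rab7, which takes late endosomes to lysosomes, had 11.25, 11.08 and 11.27 in control, 11.14, 11.03 and 10.96 in AhR-d and 11.37, 11.22 and 11.35 in AhR null. The control and AhR null arrays overlapped, and the interval of their difference was -0.19 to 0.42. Rab9, which returns receptors from late endosomes to the Golgi, differed by -0.32 (-0.74 to 0.09). Rab32 and Rab38, the paired Rabs of lysosome-related organelles known from melanosomes, differed by 0.12 (-0.37 to 0.61) and -0.31 (-0.67 to 0.04). Rab29, which recruits the kinase LRRK2, differed by 0.49, and its AhR null arrays lay above control without passing the test (adjusted p = 0.196). Rab24, linked to autophagy, differed by 0.03, and Rab36, detected on 0 control, 1 AhR-d and 2 AhR null arrays, did not pass the test (adjusted p = 0.324).

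In the early endosomal group, 7 of 9 genes were tested and none was called. The differences of 6 of the 7 in AhR null were negative, with a group median of -0.26. This direction turned with the scaling: 7 of 7 were positive on the deposited log2 values (median 0.19) and 6 of 7 with median scaling (0.28). Rab5c, 1 of the Rab5 forms that govern fusion of early endosomes, had 12.55, 12.60 and 12.59 in control, 12.17, 12.42 and 12.44 in AhR-d and 12.29, 12.32 and 12.46 in AhR null. Both mutant groups lay wholly below control, with differences of -0.24 in AhR-d (adjusted p = 0.751) and -0.22 in AhR null (0.304). The AhR null difference of Rab5c was 0.23 on the deposited log2 values and 0.28 with median scaling. Rab4b, a fast-recycling Rab, differed by -0.52 in AhR null without overlap (adjusted p = 0.164), and Rab4a, detected on 3, 1 and 2 arrays of control, AhR-d and AhR null, by -0.53 (adjusted p = 0.422). Rab5a, Rab21, Rab22a and Rab31, which act in early uptake, had differences of -0.14, -0.26, -0.30 and 0.07.

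The 4 recycling Rab genes tested, of 6, had a median size of difference of 0.09 in AhR null against control and of 0.16 in AhR-d against control. Rab11a, the Rab of the recycling endosome, had 7.69, 7.64 and 8.55 in control, 8.01, 7.23 and 7.49 in AhR-d and 8.22, 8.02 and 8.07 in AhR null. Control replicate 3 was its highest array, and the groups overlapped. Rab11b, Rab14 and Rab35 had differences of -0.06, 0.08 and 0.11 in AhR null, each with an interval within 0.5 log2 units of 0. The remaining Rab28 and Rab40c differed by -0.03 and -0.31.

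In all, 13 of the 41 Rab genes (31.7%) had AhR null arrays that did not overlap with control, 7 higher and 6 lower, against 34.3% of all features tested (16.9% higher and 17.4% lower). The sign of the difference was the same within all 3 batches for 19 Rab genes, of which 9 were higher and 10 lower, and 2 more had a difference of exactly 0 in 1 batch. The same count was not made over all features, so it cannot be read as particular to the Rab genes. The split between higher and lower depends on the scaling of the arrays. All features called in AhR null divided into 489 higher and 432 lower after quantile normalisation, but into 825 and 90 on the deposited log2 values and 837 and 86 with median scaling, where the median of all features moved from -0.03 to 0.29 and 0.53. The median of the Rab genes moved with it, to 0.40 and 0.56, and the Rab genes called on both of these scales were Rab18, Rab34 and Rab44, all higher.

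Promoter sequence was set beside these values because AhR binds DNA at a response element whose core is GCGTG. RefSeq windows of 300 bases, 250 before and 50 after a gene's start (GRCm38.p6), were found for 47 of the 57 Rab genes. The core, read on either strand as GCGTG or CACGC, occurred in 22 of the 47 (46.8%) in at least 1 window, and in 9500 of 27025 genes (35.2%). Taken by window, it was in 22 of 59 Rab windows (37.3%) and 32.4% of 32851. The windows printed, in lower case with the core in capitals, are those of the called Rab3d and of Rab10, Rab34, Rab6b and Rab19, which were called with batch as a block. No window was used for the called Rab44 and Rab18, nor for Rab2a.
Rab3d promoter, chr9:21918134-21918433, minus strand: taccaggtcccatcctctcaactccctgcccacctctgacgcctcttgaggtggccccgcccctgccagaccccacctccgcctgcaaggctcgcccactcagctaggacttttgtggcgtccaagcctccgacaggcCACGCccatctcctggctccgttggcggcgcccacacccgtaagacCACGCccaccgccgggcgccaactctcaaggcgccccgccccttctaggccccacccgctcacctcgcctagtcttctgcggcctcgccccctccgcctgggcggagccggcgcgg
Rab10 promoter, chr12:3309920-3310219, minus strand: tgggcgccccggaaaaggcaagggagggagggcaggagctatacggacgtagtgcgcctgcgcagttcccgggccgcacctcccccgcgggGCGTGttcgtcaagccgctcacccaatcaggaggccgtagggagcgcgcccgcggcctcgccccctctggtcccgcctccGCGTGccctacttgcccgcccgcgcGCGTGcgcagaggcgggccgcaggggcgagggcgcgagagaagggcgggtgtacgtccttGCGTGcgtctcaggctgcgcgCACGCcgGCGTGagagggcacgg
Rab34 promoter, chr11:78188177-78188476, plus strand, first of 2 windows: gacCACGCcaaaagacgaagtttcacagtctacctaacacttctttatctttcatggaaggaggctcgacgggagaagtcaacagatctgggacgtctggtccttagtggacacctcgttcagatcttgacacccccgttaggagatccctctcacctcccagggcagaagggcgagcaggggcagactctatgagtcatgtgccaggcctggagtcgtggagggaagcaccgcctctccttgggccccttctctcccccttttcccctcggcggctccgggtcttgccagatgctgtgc
Rab6b promoter, chr9:103111824-103112123, plus strand: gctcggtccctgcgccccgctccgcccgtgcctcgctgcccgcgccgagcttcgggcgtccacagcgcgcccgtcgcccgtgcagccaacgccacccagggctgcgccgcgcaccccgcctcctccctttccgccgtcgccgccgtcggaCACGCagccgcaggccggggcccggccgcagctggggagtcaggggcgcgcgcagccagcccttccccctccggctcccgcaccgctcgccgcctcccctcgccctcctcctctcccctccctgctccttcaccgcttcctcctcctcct
Rab19 promoter, chr6:39381103-39381402, plus strand: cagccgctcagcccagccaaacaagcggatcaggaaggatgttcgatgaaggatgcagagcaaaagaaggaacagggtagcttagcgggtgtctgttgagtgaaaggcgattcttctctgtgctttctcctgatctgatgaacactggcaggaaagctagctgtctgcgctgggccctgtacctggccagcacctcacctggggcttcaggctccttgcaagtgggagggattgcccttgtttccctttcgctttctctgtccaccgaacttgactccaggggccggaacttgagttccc
The Rab3d window holds the core at 2 places, starting 112 and 66 bases before the gene start. The Rab10 window holds it at 6 places, the Rab34 window at 1, the Rab6b window at 1 and the Rab19 window at 0. A match describes these letters and is not a binding site. No binding was measured here.

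In AhR-d mast cells, none of the 41 Rab genes differed from control in the limma test, and 0 reached an unadjusted p under 0.05, while 0.336% of all features were called and 561 of 7449 were under that unadjusted level. In the fit with the batch block the count of Rab genes was again 0, against 1.58% of all features. The fitted differences ranged from -0.48 for Rab6b to 0.46 for Rab34, which was detected on no control array, and 35 of 41 had a 95% interval within 1 log2 unit of 0. For 3 Rab genes (7.32%) the AhR-d and control arrays did not overlap, against 10.5% of all features (5.06% higher and 5.44% lower). Rab3a was the one on the higher side (6.09, 6.15 and 6.49 against 5.74, 6.06 and 6.09), and Rab5c and Rab6b were lower. The 7 early endosomal Rab genes all had negative differences, from -0.28 for Rab4a to -0.0041 for Rab22a, but 3 of 7 were positive on the deposited log2 values and 5 of 7 with median scaling. Of the granule Rab genes, Rab27a differed by 0.19 (interval -0.21 to 0.59), Rab27b by -0.0050 (-0.53 to 0.52), Rab3d by -0.28 (-0.87 to 0.30), Rab37 by 0.24 (-0.54 to 1.03) and Rab44 by 0.32 (-0.05 to 0.69).

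The comparison of AhR null with AhR-d shares its AhR null and AhR-d arrays with the comparisons above. It called 0 of 41 Rab genes in the limma test, against 2.48% of all features. Under an unadjusted p of 0.05 were 4 of 41 Rab genes, against 1247 of 7449 features. The 4 Rab genes were Rab18 (1.14 higher in AhR null, adjusted p = 0.108), Rab44 (0.49, 0.166), Rab3d (-0.74, 0.184) and Rab27a (-0.46, 0.226). The arrays did not overlap for 12 Rab genes (29.3%), 8 higher and 4 lower in AhR null, against 23.5% of all features (11.1% higher and 12.4% lower). With batch as a block, Rab18 (adjusted p = 0.0052) and Rab3d (0.0347) were called, against 6.74% of all features. Rab27a lay lower on every AhR null array (9.12 to 9.58) than on any AhR-d array (9.60 to 10.06). Rab11a lay higher, by 0.53, without passing the test (adjusted p = 0.363).

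The proteins that switch and read Rab GTPases were described from 4 lists. Of the prenylation and GDI genes, 5 of 6 on the array were tested and none was called in AhR null against control. Of the exchange factors, 13 of 26 were tested and 2 fell, with a list median of -0.39 (0.13 on the deposited log2 values, 0.19 with median scaling). Dennd3, an exchange factor for Rab12, had 8.71, 8.04 and 8.57 in control, 7.99, 8.08 and 8.07 in AhR-d and 7.42, 6.47 and 6.80 in AhR null. Its AhR null arrays were below all others, by 1.55 ± 0.27 log2 units against control (SE; adjusted p = 0.00232) and by 1.15 against AhR-d (adjusted p = 0.0401). The second of these calls was lost when any 1 AhR-d array was left out (adjusted p = 0.0656 to 0.133) and under other alternatives. Dennd1c, of a family of exchange factors for Rab35, fell by 0.74 ± 0.15 (adjusted p = 0.00551).

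Of the GTPase-activating proteins, 21 of 30 were tested, 2 rose and 2 fell, with a list median of -0.14 (0.25 on the deposited log2 values, 0.46 with median scaling). Sgsm1, a protein with RUN and TBC domains, was detected on 0 control, 1 AhR-d and 3 AhR null arrays. Set against the lowest detected signal, its mean was at least 2.24-fold higher in AhR null than in control. The fitted difference was 2.19 ± 0.31 (adjusted p = 0.000388). Sgsm1 passed the filter through the AhR null arrays, where it is high, so its test is not independent of the filter. Of the 17 genes of this list detected on all 9 arrays, 0 rose and 2 fell. Of all 5608 features so detected, 12.7% were called, 333 higher and 381 lower. Usp6nl, known to act on Rab5, rose by 1.16 ± 0.29 (adjusted p = 0.0175; detected on 2 of 3 control arrays). Tbc1d10c fell by 1.03 ± 0.17 (adjusted p = 0.00165) and Tbc1d8 by 1.04 ± 0.24 (adjusted p = 0.0109), both of the TBC family. Of the effectors, 27 of 47 were tested, 2 rose and 2 fell, with a list median of -0.0031 (0.29 and 0.58 on these scales).

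Rab11fip5, a Rab11-binding protein, had 6.99, 6.81 and 6.29 in control, 7.97, 8.27 and 8.16 in AhR-d and 9.28, 8.42 and 9.16 in AhR null. The 3 groups did not overlap, and it rose by 2.26 ± 0.27 in AhR null (adjusted p = 0.000113). It is one of the genes the study chose for its 45-probe table on these arrays, so its rise is not independent evidence. It was also the 1 gene of the 4 lists called in AhR-d against control (1.43 ± 0.27, adjusted p = 0.045). That call was lost under 16 alternatives, among them the deposited log2 values (0.72, adjusted p = 0.704) and leaving out any 1 of the control or AhR-d arrays.

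Among the partners of Rab27a, the motor Myo5a rose by 1.23 ± 0.35 (adjusted p = 0.0346; detected on 2 of 3 control arrays) and Sytl3 fell by 1.08 ± 0.24 on its brightest probe (adjusted p = 0.0108). Its second-brightest probe gave -0.43 (0.427) and the mean of its probes -0.76 (0.0637). The Rab5 effector Rabep1 fell by 0.77 ± 0.23 on its brightest probe (adjusted p = 0.0381), while its second-brightest probe gave 0.28. The shares called in AhR null were 0%, 15.4%, 19% and 14.8% for the prenylation, exchange factor, GTPase-activating and effector lists, beside 12.4% of all features. The 19% includes Sgsm1, which passed the filter through the AhR null arrays. On the deposited log2 values and with median scaling, the falls of Dennd3, Dennd1c, Tbc1d10c, Tbc1d8, Sytl3 and Rabep1 all lost their calls, with log2 differences of -0.91 to -0.10. Leaving out 1 control or AhR null array ended the calls of Usp6nl, Sytl3, Myo5a and Rabep1 in at least 1 case each, with adjusted p-values up to 0.145. With array brightness as a covariate, Dennd1c, Tbc1d8, Usp6nl, Sytl3, Myo5a and Rabep1 lost their calls (adjusted p = 0.0573 to 0.391), and Myo5a moved to 0.66.

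In 15 Rab genes a second probe passed the filter, and the 2 brightest probes could be compared. The choice of these pairs was made after the values were seen. In AhR null against control, the 2 probes had opposite signs in 7 of 15 Rab genes (46.7%), against 39.8% of 1706 genes with at least 2 such probes. Rab10 differed by 0.58 on its brightest and by 1.73 on its second probe. That second probe had 7.23, 7.13 and 5.18 in control and was detected on 2 of those 3 arrays. Rab38 gave -0.31 and 0.80, Rab8b gave -0.22 and 0.83, and Rab28 gave -0.03 and 0.61. For these 4 genes the probes differed from each other at an unadjusted p under 0.05, but with Benjamini-Hochberg adjustment over 1706 genes the limma p-values were 0.242, 0.214, 0.215 and 0.246, and 0% of the 1706 genes were called (331 at an unadjusted p under 0.05). Unless stated otherwise, the values of every Rab gene above are those of 1 probe, its brightest. Beside Rab8b, Rab28 and Rab38, the pairs of opposite sign were those of Rab1b, Rab22a, Rab24 and Rab5a.

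**Figure D3:**
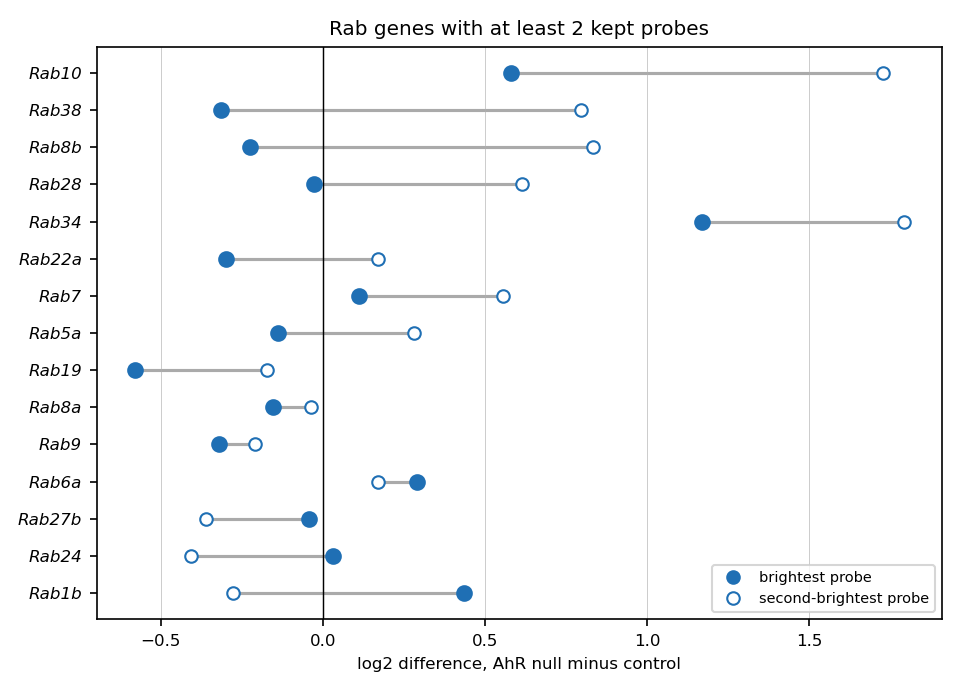
Log2 difference between AhR null and control (horizontal axis) on the brightest (filled) and the second-brightest (open) probe of the 15 Rab genes with at least 2 probes that passed the filter. The widest gaps are those of Rab10, Rab38 and Rab8b, and in 7 genes the 2 points lie on opposite sides of 0. Both Rab34 probes were at background in control, and the second Rab10 probe was detected on 2 of 3 control arrays.

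The share of Rab genes called in AhR null against control can be set beside the share of all features in each setting, as in the plot of shares by setting. The Rab share was below that of all features as reported (7.32% against 12.4%), with the batch block (19.5% against 21.2%) and with brightness as a covariate (0% against 4.32%). It was above that of all features on second-brightest probes (14.6% against 11.8%) and with no filter on dim probes (5.26% against 4.03%). In the second-brightest setting, genes with 1 kept probe keep that probe. Of its 6 Rab calls, those of Rab18, Rab3d and Rab44 are therefore carried over from the reported setting.

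**Figure D4:**
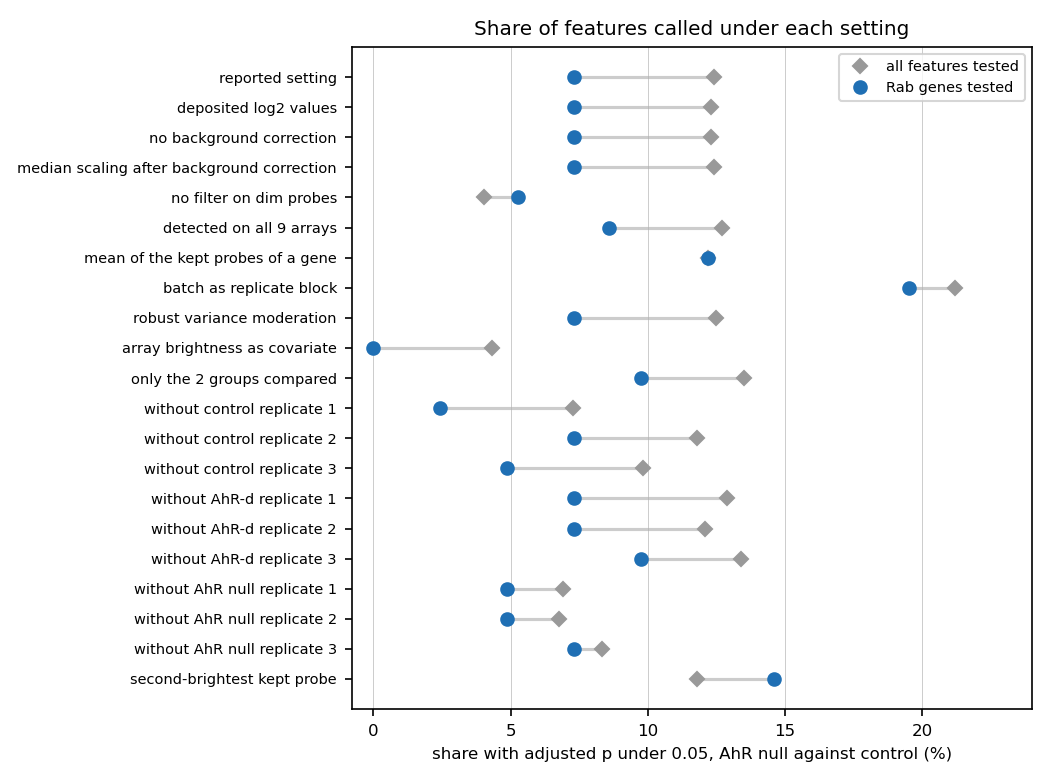
Share of features with an adjusted p under 0.05 in AhR null against control (horizontal axis, percent) for the Rab genes tested (circles) and all features tested (diamonds), 1 line per setting. The Rab share ranges from 0% to 19.5% and the share of all features from 4.03% to 21.2%.

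The 16 Rab genes not tested were Rab3b, Rab3c, Rab7b, Rab9b, Rab13, Rab15, Rab17, Rab20, Rab23, Rab25, Rab30, Rab33a, Rab39, Rab39b, Rab40b and Rab42. Of these, 13 were detected on 0 of 9 arrays, Rab13 and Rab17 on 2, all of AhR null, and Rab40b on 1, of AhR-d. The tested set thus holds the Rab genes detected on at least 3 arrays, and 35 of its 41 genes were detected on all 9.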

How the data were processed

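Total RNA of 9 mast cell cultures was hybridised to Illumina Sentrix mouse Ref-8 beadchips. The deposited table gives a raw intensity and a detection p-value per probe, with no normalisation, per the file headers. The tool named in the submitters' processing notes is GenomeStudio. A deposited table of log2 values held the log2 of the same intensities, shifted so that each array's median is 8 (checked to within 5.1e-05), and served as an alternative. Intensities were background-corrected with normexp on the detection p-values (offset 16), quantile normalised and log2 transformed (neqc, limma 3.58.1, R 4.3.3). Probes with detection p under 0.01 on at least 3 arrays were kept (9777 of 25697). Genes took their brightest probe and 585 unnamed probes stood alone, giving 7449 features. Symbols came from the platform annotation (23978 probes with 1 symbol, 0 with several, 1719 without), and 0 changed through gene IDs. One linear model held 3 groups of 3 arrays (eBayes with trend). P-values were adjusted by Benjamini-Hochberg over all features, with a threshold of 0.05. The script was tested on simulated data. The number of arrays limits precision.

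Batch numbers come from the labels. Deviations from group means correlated at 0.11 to 0.36 between arrays of the same batch (9 pairs) and at -0.36 to 0.07 between different batches (18 pairs). Deviations cancel within a group, so positive values within batches bring negative ones between them, and these ranges are not independent. Batch was also fitted as a block. The Rab genes and the lists were chosen with earlier results of these data known. Rab genes named are those called in any comparison, the 5 uncalled with the largest differences in each, and a set tied to secretion, endocytosis and lysosomes; others are given by their values. Pathway genes named are up to 4 called per list. A gene detected on no array of a group has a bound in place of a fold, set against the lowest detected signal of each array. The bound compares group means without sampling error, and the p-value of such a gene belongs to its fitted difference. Alternatives changed the values, background correction, scaling, filter, probe rule, block, variance moderation, arrays in the fit, a brightness covariate and single arrays left out; the second-brightest probe was added after seeing the data.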

Additional observations from a re-analysis of the deposited data

How the results depend on the processing

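The 3 Rab genes called in AhR null against control became 5 with the mean of a gene's probes, 6 on second-brightest probes (chosen after seeing the data), 8 with batch as a replicate block and 0 with array brightness as a covariate. Leaving out 1 array gave 1 to 4, the 1 being Rab44 alone without control replicate 1. In AhR-d against control the count was 0 under every alternative, leaving out 1 array included (0 to 0). In AhR null against AhR-d the batch block gave 2 in place of 0, and leaving out 1 array gave 0 to 0. On second-brightest probes 7 Rab genes had the opposite sign in AhR null against control, of which 1 was called there, Rab28 (0.61, adjusted p = 0.0493). Rabep1, called as reported, differed by 0.28 (0.554). Why these values changed was not tested, except that the probe rules read other probes and the left-out arrays leave fewer samples.

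Over all features, the 921 calls of AhR null against control became 322 with the brightness covariate, 1580 with the batch block and 503 to 1000 with 1 array left out. The 25 calls of AhR-d against control became 5 to 46 with 1 array left out and 6 to 118 otherwise, and the 185 of AhR null against AhR-d 82 to 243 and 110 to 502. Beside Rab10, Rab19, Rab2a, Rab34 and Rab6b in AhR null against control, and Rab18, Rab3d and Tbc1d10c (adjusted p = 0.018) in AhR null against AhR-d, the batch block changed no other call of a gene named. Brightness is higher in AhR null than in most control arrays, so the covariate and the genotype overlap. The 3 arrays per group, and a signal near background for Rab2b, Rab34, Rab36, Rab3a, Rab43, Rab4a and the second Rab10 probe, limit what can be told apart.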

Other observations

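Across the 15 Rab genes with a second probe, the second probe gave the higher difference between AhR null and control in 11, with a median gap of 0.42 log2 units, while over 1706 genes it did so in 60.8%, with a median gap of 0.14. In AhR-d against control the second probe was higher in 9 of 15 Rab genes, against 51.8% of all such genes. The pairs were chosen after seeing the data, the brightest and second probes differ in signal by construction, and no cause was tested.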
